A study of Mus musculus with 18 samples.

Results

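Ribosome biogenesis and nucleolar genes were followed through the differentiation of mouse neurospheres to astrocytes, without and with TNF. The set is a written list of 50 genes, given by name, out of 54838 genes in the deposited table, and all 50 were among the 20067 genes with enough counts to be tested. The data are 18 libraries of rRNA-depleted total RNA in 6 conditions with 3 libraries each. Every culture started from neural stem cells of the ventricular zone, each taken from a single wild-type C57BL/6J brain at embryonic day 14. Neurospheres (NSP) were kept proliferating in B27 medium without vitamin A and with EGF at 20 ng/ml. The other conditions were grown on poly-L-ornithine in DMEM with 10% FBS: 24 h, 72 h and 1 week without TNF, and 24 h and 72 h with TNF at 50 ng/ml (24 h TNF and 72 h TNF). The study's methods speak in general of independent biological experiments, but the labels do not say whether the libraries of a condition came from separate brains or cultures, so the p-values measure only the spread between these libraries, which may be technical. The medium, the serum and the plating changed together with time out of NSP, and their effects cannot be told apart.

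Ribosomes are built in the nucleolus, where RNA polymerase I transcribes the long ribosomal RNA precursor. Small nucleolar ribonucleoproteins (snoRNPs) of the box C/D and box H/ACA kinds then guide its methylation and pseudouridylation, and assembly factors cut, fold and export the small and the large subunit. The process is among the costliest of a growing cell and is known to be high in proliferating stem and progenitor cells. The genes measured here encode these proteins, and the ribosomal RNA that they make was removed from the libraries, so no value below measures ribosome production itself.

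The 50 genes were grouped by role. The nucleolar scaffold and chaperone genes were *Ncl*, *Npm1*, *Npm3*, *Nolc1*, *Ddx21* and *Mybbp1a*. The RNA polymerase I genes were *Polr1a*, *Polr1b*, *Rrn3*, *Ubtf* and *Tcof1*. The box C/D core was *Fbl*, *Nop56* and *Nop58*, and the box H/ACA core was *Dkc1*, *Gar1*, *Nhp2* and *Nop10*. A further 14 genes act in small subunit assembly and 18 in large subunit assembly. The genes gave 0.349% to 0.600% of all counts in NSP libraries and 0.188% to 0.261% in the libraries of the other conditions. The lowest count of any of them in a library was 6, for *Wdr74*, and 48 of the 50 had at least 50 counts in every library.

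Total counts per library ranged from 12509693 to 22549627. The summed CPM (counts scaled to a common library total with TMM factors) of 15 proliferation genes was 2038 to 3595 in NSP, 188 to 208 at 24 h, 74.1 to 106 at 72 h and 73.3 to 84.1 at 1 week. The astrocyte marker *Gfap* was at 11.6 to 37.3 CPM in NSP, 864 to 949 CPM at 24 h and 1855 to 3172 CPM at 72 h, but only at 52.7 to 81.6 CPM at 1 week, and the summed CPM of 9 astrocyte markers was 5240 to 5463 in NSP, 5876 to 6173 at 24 h, 6203 to 8493 at 72 h and 3501 to 3631 at 1 week. The markers did not move one way: against NSP, 4 rose and 1 fell at 24 h, 3 rose and 3 fell at 72 h, and 1 rose and 5 fell at 1 week. The 1 week libraries are therefore named by their time. Microglia markers summed to at most 3.95 CPM in any library, with *C1qa* at 0 throughout and 6 of 8 under 1 CPM in every library. Of 7 tested neuron markers 5 fell from NSP to 72 h and 5 from NSP to 1 week, with medians of -1.46 and -1.96 on the log2 scale, while *Map2* held 1409 to 2075 CPM in every library. Oligodendrocyte lineage markers summed to 1061 to 1367 CPM in NSP, 376 to 456 at 24 h and 82.4 to 91.7 at 72 h, and 8 neural stem cell markers to 6430 to 8038 in NSP and 3718 to 4639 at 1 week. Of 9 mesenchymal and vascular markers 7 were under 1 CPM in every library, while *Acta2*, a smooth muscle actin, was at 3.53 to 10.3 CPM in NSP and 401 to 494 CPM at 24 h. The part of these shifts in the results below was not tested. *Nfkbia*, the NF-kB inhibitor that TNF induces, was at 16 to 30.4 CPM in every library without TNF and at 135 to 161 CPM in all 6 with TNF, as the labels state. RNA quality numbers ranged from 3.4 to 10 per the labels and are not given per library, so their part in any value was not tested.

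NSP replicate 1 stood apart from the other NSP libraries in these genes. All 50 were higher in it than in NSP replicates 2 and 3, by a median ratio of 1.74 to their mean, from 1.13 for *Npm3* to 2.60 for *Gar1*. The median ratio of the other tested genes was 1.04, and 38 of the 50 genes, but 19.5% of the others, reached 1.5 times that mean. Of 15 proliferation genes, 14 were also higher in it than in both others. The number of genes called in each comparison with NSP is therefore given with and without this library. The libraries 24 h TNF replicate 1 and 72 h TNF replicate 1 also lay away from their groups, with a root mean square log2 deviation over all other genes of 0.613 and 0.584.

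**Figure D1:**
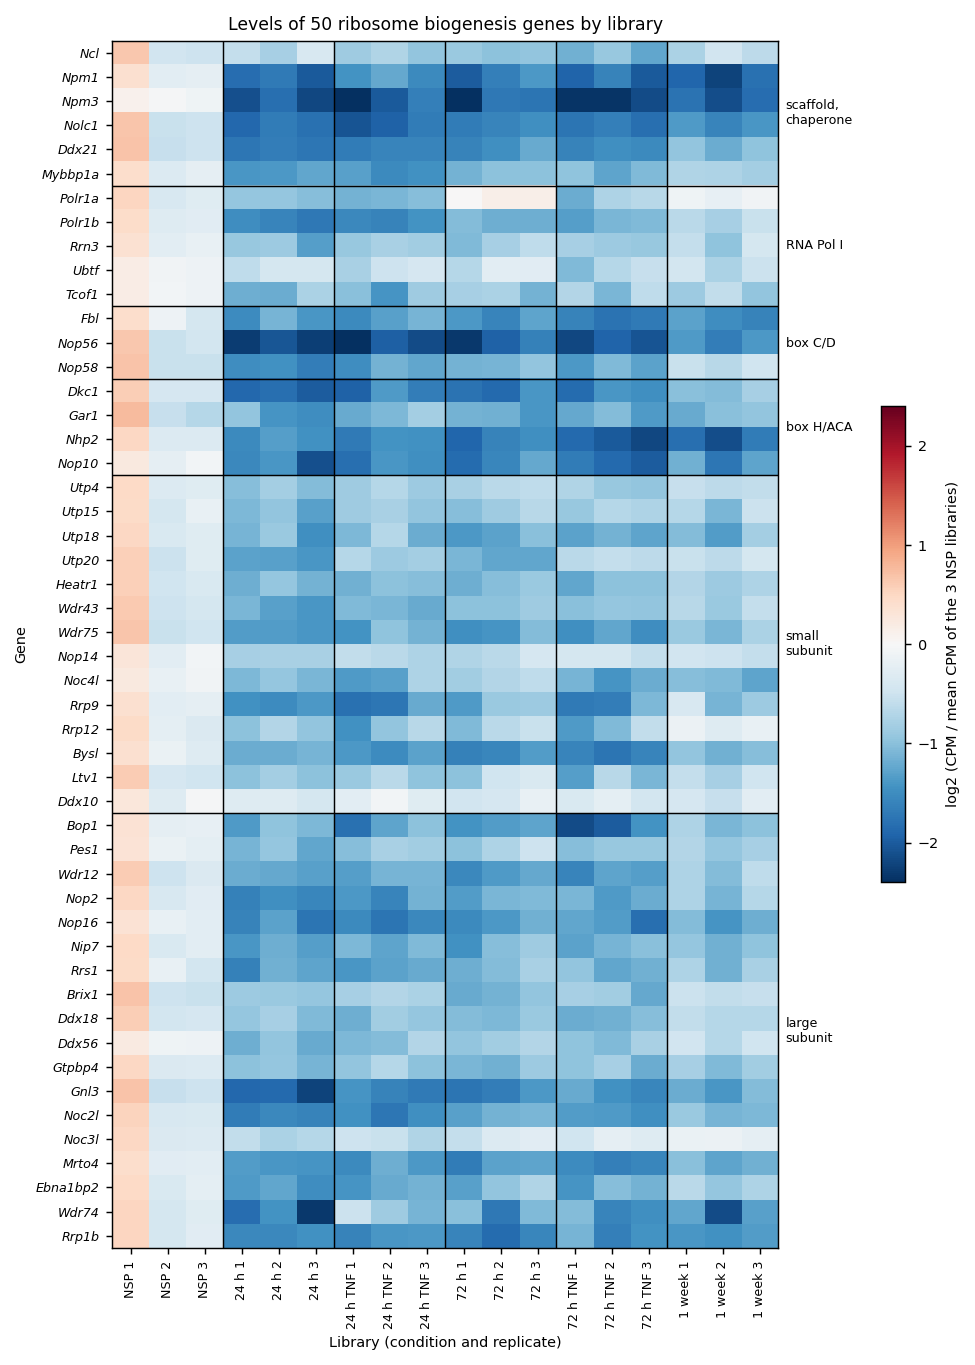
Log2 ratio of the CPM of each of the 50 genes (rows, grouped by role) in each of the 18 libraries (columns) to the mean CPM of the 3 NSP libraries; red is higher and blue lower. NSP replicate 1 is above NSP replicates 2 and 3 in every row, and nearly all rows are blue in every differentiating library, with *Polr1a* at 72 h among the exceptions. The reference includes NSP replicate 1, so NSP replicates 2 and 3 also lie below the reference, on the blue side, in every row.

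In the first comparison, 24 h against NSP, the genes as a set were lower after the change of medium. Of 50 genes, 49 fell and none rose at an adjusted p under 0.05 (edgeR's quasi-likelihood test with Benjamini-Hochberg adjustment over 20067 genes), where 25.5% of all tested genes fell and 27.2% rose. The median log2 fold change was -1.28, a 2.43-fold fall, with a range of -2.20 to -0.34, and the median of all tested genes was 0.06. In 49 genes every 24 h library lay below every NSP library, as in 29.6% of all genes. Without NSP replicate 1, 47 genes fell and the median was -0.94. The proliferation genes fell in the same comparison, all 15 of 15, with a median log2 fold change of -4.0. In bulk RNA, fewer cells of a type and less RNA per cell cannot be told apart, and the part of cell division in the fall was not tested.

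Among the scaffold and chaperone genes all 6 fell, with a median log2 fold change of -1.74 (5 fell, median -1.23, without NSP replicate 1). *Npm1* encodes nucleophosmin, a histone and ribosome chaperone, and was the most abundant of the 50 genes per length, at a mean of 302 CPM per kb in NSP and 84.1 CPM per kb at 24 h. Its CPM was 1046, 674 and 695 in NSP, 226, 248 and 198 at 24 h, 202, 258 and 311 at 72 h, and 216, 172 and 233 at 1 week. With TNF it was 298, 343 and 280 at 24 h and 212, 266 and 199 at 72 h. Every NSP library lay above every library of the other conditions. From NSP to 24 h *Npm1* fell by 1.84 on the log2 scale (SE 0.19, edgeR adjusted p = 3.73e-07).

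*Npm3*, a relative of nucleophosmin that acts in the nucleolus, had no overlap between NSP and any other condition. Its CPM was 36.4, 33.2 and 31.5 in NSP and 7.78, 9.62 and 7.41 at 24 h, and it stayed between 5.90 and 10.8 CPM in every later or TNF-treated library. It was the gene least changed by the choice of NSP libraries: the log2 fold change from NSP to 24 h was -2.02 (SE 0.22, edgeR adjusted p = 5.52e-07) with all libraries and -1.96 without NSP replicate 1.

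*Ncl*, nucleolin, a major RNA-binding protein of the nucleolus, depended on the outlying library. Its CPM was 701, 323 and 317 in NSP and 299, 256 and 342 at 24 h, so NSP replicates 2 and 3 overlapped with the 24 h libraries. The log2 fold change was -0.58 (SE 0.22, edgeR adjusted p = 0.0344) with all libraries and -0.10 (SE 0.14, edgeR adjusted p = 0.555) without NSP replicate 1. Without that library the log2 fold change from NSP to 72 h was -0.46 (edgeR adjusted p = 0.00798) and that to 1 week was -0.14 (edgeR adjusted p = 0.396).

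**Figure D2:**
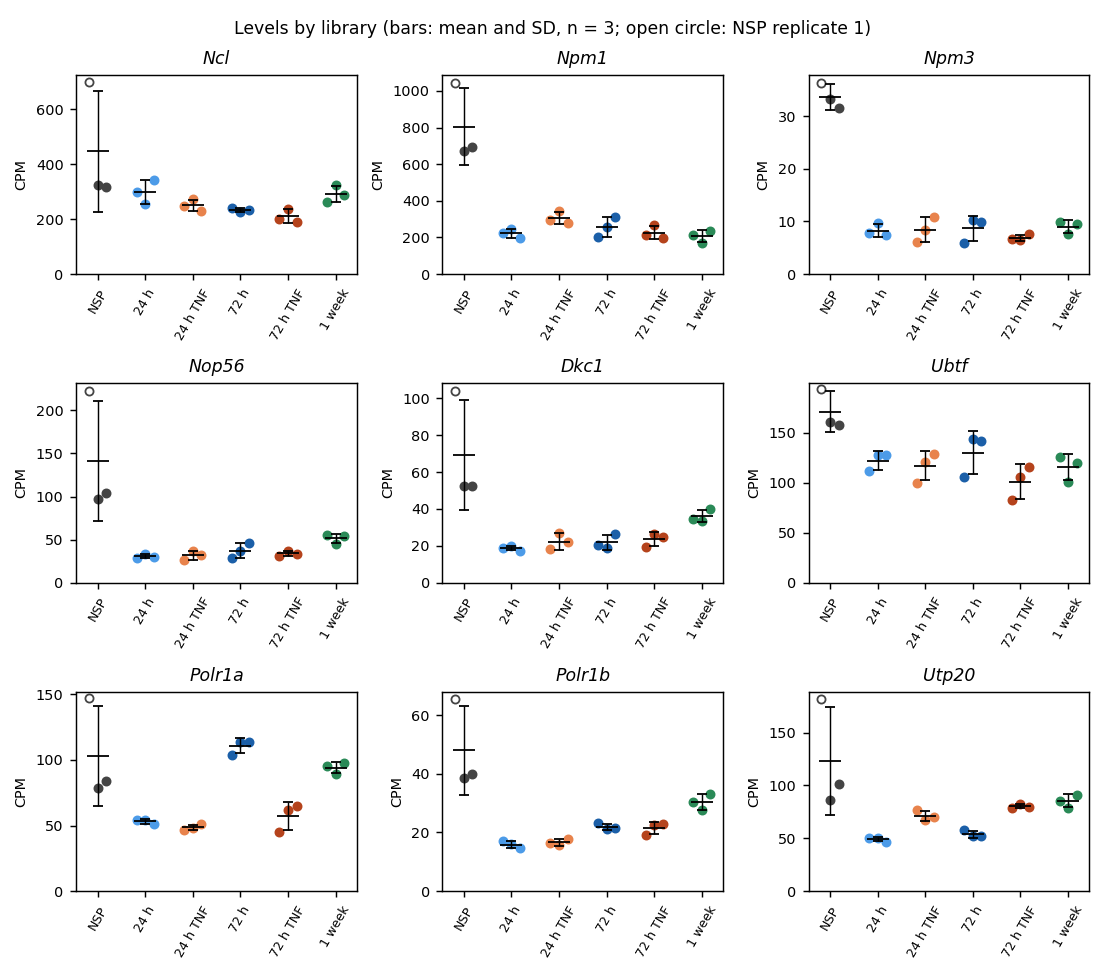
CPM of 9 genes in each of the 18 libraries (points; bars give the mean and SD of 3 libraries; the open circle is NSP replicate 1). *Npm1*, *Npm3* and *Nop56* are low in all differentiating conditions, *Polr1a* is back in the NSP range at 72 h and 1 week but not at 72 h with TNF, and *Utp20* is higher in both TNF conditions than in the untreated cells of the same time.

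The snoRNP core genes fell together. All 3 genes of box C/D fell at 24 h, with log2 fold changes of -2.20 for *Nop56*, -1.53 for *Nop58* and -1.32 for *Fbl*, the methyltransferase fibrillarin. *Nop56* had the largest fall of the 50 with all NSP libraries, and *Npm3* had it without NSP replicate 1. The CPM of *Nop56* was 222, 97.4 and 104 in NSP and 28.9, 33.8 and 29.3 at 24 h, with an SE of 0.25 (edgeR adjusted p = 1.07e-06), and without NSP replicate 1 it fell by 1.72 on the log2 scale. Without that library the median of the box C/D genes was -1.07 and that of the box H/ACA genes -1.30, and all 7 still fell. All 4 genes of box H/ACA also fell, with log2 fold changes of -1.90 for *Dkc1* (the pseudouridine synthase dyskerin), -1.65 for *Nop10*, -1.43 for *Nhp2* and -1.26 for *Gar1* (-0.65, edgeR adjusted p = 0.0146, without NSP replicate 1). *Gar1* is expressed at a low level, with CPM of 16.6, 6.70 and 6.09 in NSP and 5.06, 3.69 and 3.5 at 24 h. At 1 week against NSP its adjusted p was 0.00502 with all libraries and 0.0716 without it (edgeR).

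All 5 RNA polymerase I genes fell, with a median of -1.02 (4 fell, median -0.80, without NSP replicate 1). *Polr1b*, the second-largest subunit, was at 65.5, 38.5 and 39.9 CPM in NSP and 17.1, 16 and 14.6 CPM at 24 h (log2 fold change -1.59, SE 0.17, edgeR adjusted p = 6.24e-07). *Polr1a*, the largest subunit, fell by 0.96 on the log2 scale and *Rrn3*, the initiation factor that recruits the polymerase, by 1.02. *Tcof1*, the treacle protein that links the polymerase to rRNA processing, changed by -1.03. *Ubtf*, the upstream binding factor that covers active rRNA genes, moved least, with CPM of 194, 161 and 158 in NSP and 112, 128 and 128 at 24 h; its log2 fold change was -0.48 (SE 0.15, edgeR adjusted p = 0.0136), and -0.38 (edgeR adjusted p = 0.0599) without NSP replicate 1.

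In small subunit assembly 13 of 14 genes fell at 24 h, with a median log2 fold change of -1.08 and a range of -1.45 to -0.34 (13 fell, median -0.81, without NSP replicate 1). The gene that did not pass was *Ddx10*, an RNA helicase, at 44.9, 30.1 and 36.6 CPM in NSP and 30.0, 30.1 and 27.9 CPM at 24 h (log2 fold change -0.34, edgeR adjusted p = 0.0515). In large subunit assembly all 18 genes fell, with a median of -1.31 and a range of -1.98 to -0.67 (18 fell, median -1.0, without NSP replicate 1). The extreme was *Gnl3*, nucleostemin, a GTPase known for its high level in stem cells, at 146, 62.4 and 65.0 CPM in NSP and 24.8, 24.9 and 19.5 CPM at 24 h (SE 0.25, edgeR adjusted p = 3.40e-06). The members of the PeBoW complex, *Bop1*, *Pes1* and *Wdr12*, which acts in maturation of the large subunit rRNA, fell by 1.13, 1.08 and 1.24 on the log2 scale, and by 0.92, 0.89 and 0.82 without NSP replicate 1.

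**Figure D3:**
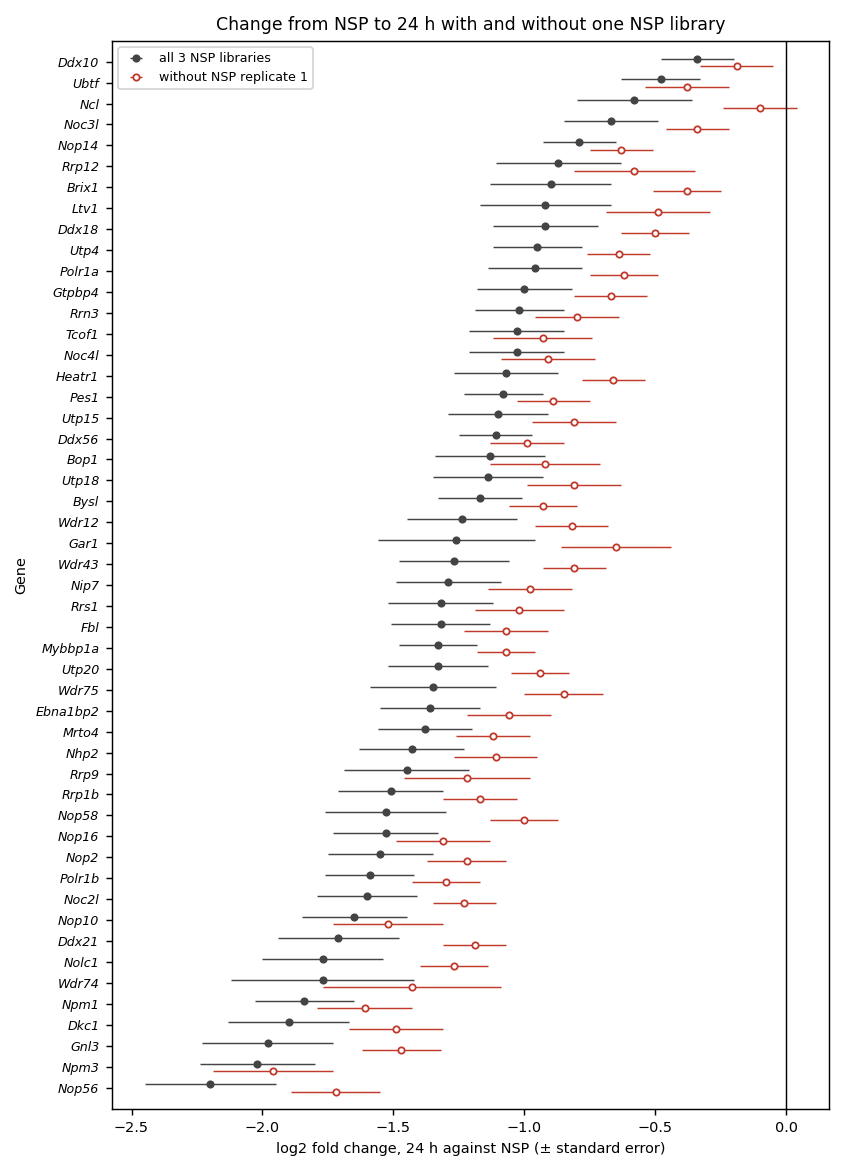
Log2 fold change from NSP to 24 h for each of the 50 genes, with its standard error, from the fit with all 3 NSP libraries (filled) and without NSP replicate 1 (open). Each open point lies closer to 0 than the filled one in all 50 genes, and all remain below 0; *Ncl* moves from -0.58 to -0.10.

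The later time points and the TNF conditions were compared with the same 3 NSP libraries, so these comparisons share their controls. At 72 h 48 genes fell and none rose, where 27.2% of all tested genes fell and 28.1% rose, and the median log2 fold change was -1.08. Without NSP replicate 1 the median was -0.78 and 45 genes passed the test, 44 of them lower and *Polr1a* higher. At 1 week 47 genes fell and none rose, where 29.1% of all genes fell and 29.6% rose, with a median of -0.82; without NSP replicate 1, 36 fell and the median was -0.51. At 24 h TNF 49 genes fell (26.3% of all genes fell and 28.2% rose) with a median of -1.15, and at 72 h TNF 49 fell (30.1% of all genes fell and 31.7% rose) with a median of -1.19; without NSP replicate 1 the counts were 44 and 47 and the medians -0.82 and -0.85.

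With all NSP libraries the 3 genes with the largest fall at 72 h were *Npm3* (-1.94), *Nop56* (-1.93) and *Dkc1* (-1.67). At 1 week they were *Npm1* (-1.96), *Npm3* (-1.90) and *Nhp2* (-1.86). At 24 h TNF they were *Nop56* (-2.16), *Npm3* (-2.0) and *Nolc1* (-1.89), a chaperone of snoRNPs, and at 72 h TNF *Npm3* (-2.28), *Nop56* (-2.06) and *Nhp2* (-2.02). Without NSP replicate 1 *Npm3* came first in each of these 4 comparisons, *Npm1* (-1.42) took the place of *Dkc1* at 72 h, and *Nop10* that of *Nolc1* at 24 h TNF (-1.42) and of *Nop56* at 72 h TNF (-1.71). The genes that did not pass were *Noc3l* and *Polr1a* at 72 h, *Noc3l*, *Polr1a* and *Rrp12* at 1 week, *Ddx10* at 24 h TNF and *Noc3l* at 72 h TNF. *Noc3l*, a large subunit export factor, was at 61.8, 34.5 and 34.7 CPM in NSP and at 38.9, 39.4 and 37.6 CPM at 1 week, above NSP replicates 2 and 3. *Rrp12*, which acts in export of both subunits, was at 32.2, 19.8 and 18.3 CPM in NSP and at 21.3, 18.9 and 20.6 CPM at 1 week.

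The course after 24 h was then compared within the untreated cells. From 24 h to 72 h 1 gene, *Polr1a*, rose and none fell, where 12.2% of all genes rose and 12.6% fell, and the median log2 fold change was 0.21. From 72 h to 1 week 1 gene rose, where 2.68% of all genes rose and 3.96% fell, with a median of 0.19. The gene was *Utp20*, a scaffold of the small subunit precursor, at 57.4, 51.9 and 51.7 CPM at 72 h and 85.4, 79.1 and 91.4 CPM at 1 week (log2 fold change 0.67, SE 0.18, edgeR adjusted p = 0.0346), and this call was lost when any 1 of the 6 libraries was left out.

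Over the whole interval the rise was larger. The comparison of 1 week with 24 h was added after the levels had been seen, and 17 of the 50 genes rose and none fell, where 14.1% of all genes rose and 15.5% fell. The median log2 fold change was 0.33. The largest rises were in *Nop58* (0.98, SE 0.23, edgeR adjusted p = 0.00347), *Dkc1* (0.95, SE 0.23, edgeR adjusted p = 0.00393) and *Polr1b* (0.93, SE 0.17, edgeR adjusted p = 0.000400). *Nop58* was at 55.1, 56.2 and 48.6 CPM at 24 h and 107, 97.6 and 110 CPM at 1 week, against 249, 107 and 106 CPM in NSP. With all NSP libraries it was lower at 1 week than in NSP (-0.55, edgeR adjusted p = 0.0445), and without NSP replicate 1 it was not called (-0.03). *Dkc1* was at 18.7, 19.7 and 17.4 CPM at 24 h and 34.7, 33.6 and 39.9 CPM at 1 week, below its NSP libraries (104, 52.2 and 52.3 CPM).

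By role, RNA polymerase I genes rose in 2 of 5, box C/D genes in 2 of 3, box H/ACA genes in 1 of 4, small subunit genes in 4 of 14, large subunit genes in 6 of 18 and scaffold genes in 2 of 6, and a difference between roles was not tested. *Npm1*, *Npm3* and *Nhp2* were among the genes whose 1 week libraries overlapped with or lay below those of 24 h, and there were others. *Nhp2* was at 19.8, 23.1 and 20.9 CPM at 24 h and 16.3, 13.2 and 18 CPM at 1 week. The proliferation genes did not rise: 11 of 15 fell between 24 h and 1 week. Leaving out 24 h replicate 1 or 3, or 1 week replicate 1 or 3, brought the number of genes that rose to 8 or 9.

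*Polr1a* was the gene of the 50 called both between 24 h and 72 h and with TNF. It lies on chr6:71909053-71984935 (plus strand, GRCm38) and encodes the catalytic subunit of RNA polymerase I. Its CPM was 147, 78.9 and 83.9 in NSP, 54.0, 54.3 and 50.8 at 24 h, 104, 114 and 114 at 72 h, and 95.5, 89.3 and 97.7 at 1 week. The 72 h libraries were all above the 24 h libraries and above NSP replicates 2 and 3, though below NSP replicate 1. The log2 fold change from 24 h to 72 h was 1.06, a 2.08-fold rise (SE 0.18, edgeR adjusted p = 0.000307). The log2 fold change of 72 h against NSP was 0.10 (SE 0.18, edgeR adjusted p = 0.666) with all libraries and 0.44 (SE 0.13, edgeR adjusted p = 0.00924) without NSP replicate 1. *Polr1b*, its partner in the enzyme, was at 23.2, 21.3 and 21.4 CPM at 72 h, below all of its NSP libraries.

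With TNF *Polr1a* did not pass the test between the time points (log2 fold change 0.23, SE 0.18, edgeR adjusted p = 0.454). Its CPM was 46.9, 48.2 and 50.8 at 24 h TNF and 45.2, 61.5 and 65.1 at 72 h TNF. All 72 h TNF libraries lay below all untreated 72 h libraries. The log2 fold change with TNF was -0.12 at 24 h and -0.95 at 72 h, a 1.93-fold fall (SE 0.18, edgeR adjusted p = 0.00198). The difference between both TNF effects was -0.82 (SE 0.26, unadjusted p = 0.00472, edgeR adjusted p = 0.223), which did not pass. It passed with no filter on low counts (edgeR adjusted p = 0.0247) and when NSP replicate 1, 24 h TNF replicate 1 and 72 h TNF replicate 1 were left out together, an alternative chosen after the data were seen (-0.68, edgeR adjusted p = 0.00832). With those 3 libraries left out *Polr1a* also rose from 24 h TNF to 72 h TNF (0.39, edgeR adjusted p = 0.00742). The exons of *Polr1a* share 185 bases with *Gm26628*, a gene on the opposite strand, and the strand setting of the counting is not given in the sources used here. *Gm26628* had 45, 48 and 41 counts at 24 h, 85, 74 and 77 at 72 h, 46, 49 and 35 at 24 h TNF, and 47, 60 and 75 at 72 h TNF. Its counts were also higher at 72 h than at 24 h, and in 2 of 3 libraries at 72 h TNF they were below all untreated 72 h libraries. The part of reads shared by both genes in the values of *Polr1a* was not tested.

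Cell type markers also moved with TNF. Of 9 astrocyte markers 2 fell and none rose at 24 h, and 3 fell and none rose at 72 h, where their summed CPM was 3695 to 5115 with TNF against 6203 to 8493 without. The 3 were *Gfap*, *Aldoc* and *S100b*. Of 7 tested oligodendrocyte lineage markers 1 fell and none rose at 24 h, where the list summed to 165 to 396 CPM with TNF against 376 to 456 CPM without. At 72 h 2 rose and none fell, *Cspg4* and *Olig2*, and the list summed to 145 to 185 CPM with TNF against 82.4 to 91.7 CPM without. Of 7 tested neuron markers 1 fell at 72 h, and of 3 tested mesenchymal and vascular markers 1 rose at 24 h. The TNF libraries that lay away from their groups also differed in these markers: *Gfap* was at 1871 CPM in 24 h TNF replicate 1 against 463 and 596 CPM in the others, and at 1022 CPM in 72 h TNF replicate 1 against 217 and 229 CPM. Without 72 h TNF replicate 1 the log2 fold change of *Polr1a* with TNF at 72 h was -0.80 (edgeR adjusted p = 0.00898). The part of the marker shifts in the TNF results was not tested.

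With edgeR the share of the 50 genes called with TNF was below that of all genes, and with so few calls to be had this is no result about the 50. At 24 h no gene passed the test with edgeR or DESeq2, where 2.18% of all genes rose and 1.32% fell, with 3 genes at an unadjusted p under 0.05 and a median log2 fold change of 0.10. At 72 h 1 gene, *Polr1a*, fell and none rose with edgeR, where 5.21% of all genes fell and 4.35% rose. Here 5 of the 50 were at an unadjusted p under 0.05, and the median was -0.11. DESeq2 called 3, with *Polr1a* and *Noc4l* lower and *Utp20* higher. Of all genes with a DESeq2 p-value, taken without the filter on low counts, 3.37% fell, and the share that rose is not given. From 24 h TNF to 72 h TNF no gene passed with edgeR or DESeq2 (5.38% of all genes rose and 7.93% fell; 5 of the 50 at an unadjusted p under 0.05). The interaction of TNF and time had no gene that passed with either tool (0.458% of all genes passed; 2 of the 50 at an unadjusted p under 0.05). Of 8 tested TNF response genes, 8 rose at 24 h and 7 at 72 h.

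*Utp20* was higher with TNF at both times. It was at 50.2, 50.0 and 46.9 CPM at 24 h against 76.7, 67.6 and 69.8 CPM at 24 h TNF, and at 57.4, 51.9 and 51.7 CPM at 72 h against 78.8, 82.3 and 79.9 CPM at 72 h TNF. The groups did not overlap at either time, as in 10.7% and 12.7% of all genes. The log2 fold change was 0.54 at 24 h (SE 0.19, edgeR adjusted p = 0.142) and 0.58 at 72 h (SE 0.18, edgeR adjusted p = 0.0542), so neither passed. The 72 h difference passed in 6 of 15 alternatives, among them DESeq2 (adjusted p = 0.0393), and the 24 h difference in 3 of 15. With any single library left out the 72 h difference did not pass (edgeR adjusted p = 0.0547 to 0.176). *Noc4l*, a small subunit factor, was at 11.5, 12.6 and 13.5 CPM at 72 h and 9.52, 7.72 and 9.01 CPM at 72 h TNF (log2 fold change -0.52, edgeR adjusted p = 0.0715), and passed with DESeq2 (adjusted p = 0.0429) and without the 3 libraries named above (edgeR adjusted p = 0.0271). *Bop1* was at 25.2, 26.9 and 28.5 CPM at 72 h and 15.4, 17.1 and 25.3 CPM at 72 h TNF (log2 fold change -0.48, edgeR adjusted p = 0.164), and *Npm1* had a log2 fold change of 0.45 at 24 h (edgeR adjusted p = 0.260) and -0.19 at 72 h.

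**Figure D4:**
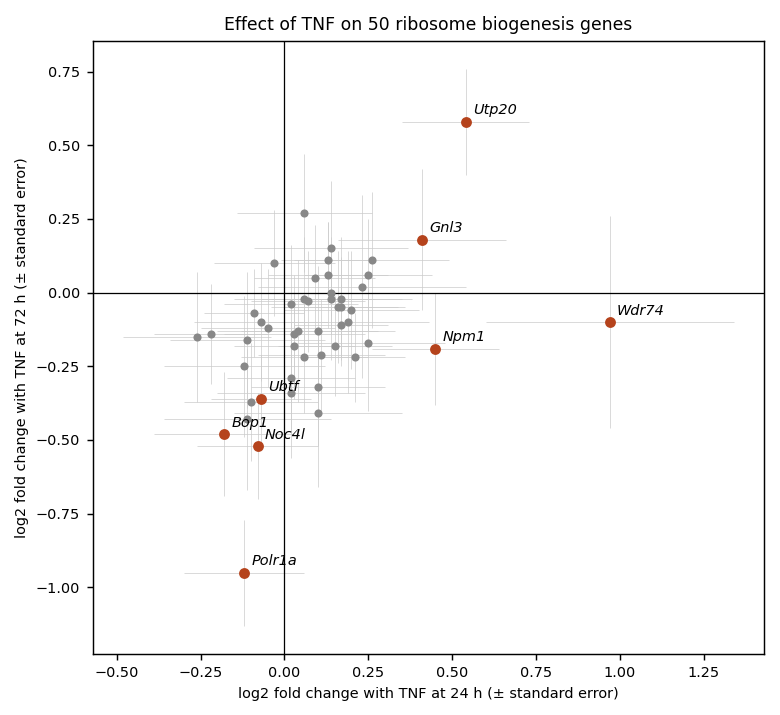
Log2 fold change with TNF at 24 h (horizontal axis) and at 72 h (vertical axis) for each of the 50 genes, with standard errors; 8 genes are named and drawn in red. Within 0.25 of 0 on both axes lie 30 genes, *Polr1a* lies at -0.95 on the vertical axis, and *Utp20* is at 0.54 and 0.58.

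Genes of the same pathway outside the 50 were described from 4 lists of 124 further genes, of which 123 were tested. At 24 h against NSP 110 fell and none rose, where 25.5% of all tested genes fell and 27.2% rose, with a median log2 fold change of -0.77; without NSP replicate 1, 96 fell and the median was -0.62. By list, 10 of 11 RNA polymerase I genes, 44 of 48 small subunit genes, 37 of 43 large subunit genes and 19 of 21 genes of snoRNP assembly and the exosome fell. With all NSP libraries the largest falls were in *Lyar*, a nucleolar zinc finger protein (-1.94), and *Taf1d*, a subunit of the RNA polymerase I selectivity factor (-1.86), and without NSP replicate 1 in *Ruvbl2* (-1.59), an ATPase of snoRNP assembly, and *Ppan* (-1.57), a large subunit factor. At 72 h 90 fell and 2 rose (27.2% and 28.1% of all genes), and at 1 week 83 fell and 1 rose (29.1% and 29.6% of all genes), with medians of -0.68 and -0.61; without NSP replicate 1, 82 and 68 fell, with medians of -0.53 and -0.41. With TNF none of the 123 passed the test at 24 h with edgeR (8 at an unadjusted p under 0.05), where 2.18% of all genes rose and 1.32% fell. At 72 h, where 4.35% of all genes rose and 5.21% fell, 1 fell, *Zfp593*, a factor of large subunit assembly, from 1.66, 2.09 and 2.64 CPM to 0.732, 1.10 and 0.938 CPM (log2 fold change -1.21, SE 0.30, edgeR adjusted p = 0.0157).

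Some of the genes also carry snoRNA genes. Small nucleolar RNAs in mammals are mostly processed from introns of host genes, and 6 of the 50 genes (12.0%) held annotated snoRNA genes in their span on the same strand, against 1.78% of 13784 protein-coding genes tested. They were *Nop58*, *Ncl*, *Nop56*, *Gnl3*, *Wdr43* and *Dkc1*, with 19 snoRNAs in all. The 4 sequences below, from GRCm38, are shown as examples of box C/D snoRNAs inside genes of the set, with the first TGATGA (the C box) and the last CTGA (the D box) in capitals. They lie in *Nop58* (chr1:59704790-59704873, plus strand), *Ncl* (chr1:86356261-86356330, minus strand), *Nop56* (chr2:130275506-130275573, plus strand) and *Wdr43* (chr17:71631281-71631365, plus strand).
Snord11: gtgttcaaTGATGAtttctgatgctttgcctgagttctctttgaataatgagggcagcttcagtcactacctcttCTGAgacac
Snord82: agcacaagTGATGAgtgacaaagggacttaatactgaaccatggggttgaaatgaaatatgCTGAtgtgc
Snord110: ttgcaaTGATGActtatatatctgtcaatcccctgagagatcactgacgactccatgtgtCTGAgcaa
Snord92: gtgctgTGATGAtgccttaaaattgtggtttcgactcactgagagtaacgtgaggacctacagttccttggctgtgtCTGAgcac

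The counts assigned to these snoRNAs were low. The highest count of any one in a library was 43, and the 9 that lie outside all annotated exons of their host summed to 178, 95 and 71 counts in NSP, 48, 43 and 28 at 24 h, 67, 46 and 40 at 24 h TNF, 49, 55 and 52 at 72 h, 53, 83 and 71 at 72 h TNF, and 81, 77 and 58 at 1 week. The sum was highest in NSP replicate 1, and 24 h replicate 3 had the lowest. The other 10 overlap an annotated exon of the host and had 0 counts in every library, while all 9 outside host exons had counts in some library. Reads in such an overlap match 2 genes, and how these were counted is not given. The 0 counts therefore do not show that the 10 were absent. Fragments of host precursor RNA and mature snoRNA cannot be told apart in these counts, which are given as they stand with no test.

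Promoters were searched for the E-box CACGTG, a site of basic helix-loop-helix leucine zipper factors, in RefSeq windows of 250 bases before to 50 after each start (GRCm38.p6). The motif reads the same on both strands. Of 44 genes of the set with a window, 9 held it (20.5%), against 8.09% of 27025 genes. The 27025 were all genes with a window, whether expressed here or not, while the 44 were all tested. The share among tested genes only was not computed, so the difference may not be particular to the set. The 9 were *Nop2*, *Utp4*, *Ltv1*, *Utp20*, *Pes1*, *Mybbp1a*, *Utp18*, *Rrn3* and *Wdr43*. From NSP to 24 h these 9 had a median log2 fold change of -1.14 (range -1.55 to -0.92) and the 35 without the motif one of -1.35 (range -2.20 to -0.34), so the ranges overlapped. Sites in 4 genes are shown with the motif in capitals: *Nop2* (chr6:125131803-125131848, plus strand), *Utp18* (chr11:93885767-93885806, minus strand), *Utp20* (chr10:88826765-88826789, minus strand) and the 2 of *Rrn3* (chr16:13780464-13780509 and chr16:13780631-13780676, plus strand).
Nop2: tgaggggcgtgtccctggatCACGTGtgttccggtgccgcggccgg
Utp18: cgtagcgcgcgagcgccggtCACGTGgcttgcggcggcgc
Utp20: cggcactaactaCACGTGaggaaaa
Rrn3, upstream site: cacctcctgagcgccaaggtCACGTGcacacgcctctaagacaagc
Rrn3, site near the start: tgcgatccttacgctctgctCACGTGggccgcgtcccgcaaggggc

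The promoter of *Polr1a*, the gene called at 72 h, is printed for comparison. The 200 bases before its start (chr6:71908853-71909052, plus strand) have a GC content of 45.5% and do not contain these 6 letters.
Polr1a: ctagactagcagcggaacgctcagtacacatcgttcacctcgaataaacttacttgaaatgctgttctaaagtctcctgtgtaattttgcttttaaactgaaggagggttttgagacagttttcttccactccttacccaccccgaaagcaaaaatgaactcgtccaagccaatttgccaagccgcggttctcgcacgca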

How the data were processed

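Stranded libraries were made from rRNA-depleted total RNA. Per the labels and methods, the authors ran FastQC, Trim Galore, STAR and SAMtools, with mm10 as the build, and featureCounts for reads per gene; tool versions, strand setting and treatment of reads matching several genes are not given in the sources used here. They deposited raw counts, without normalization, for 54838 genes, of which 54809 matched GENCODE M21 identifiers, used here for names and coordinates. Totals of 12509693 to 22549627 counts per library bear on counting error only, not on the spread between libraries. Reads carry no molecular identifiers, so copies from amplification cannot be told apart in these counts.

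edgeR 4.0.16 (limma 3.58.1, R 4.3.3) was fitted to all 18 libraries with TMM factors, a mean per condition and edgeR's filter by condition; 20067 genes were tested by quasi-likelihood with Benjamini-Hochberg adjustment (threshold 0.05). CPM values use TMM-scaled totals. On counts simulated for 24 h against NSP over 20067 genes, edgeR found 50 of 100 genes changed by 1 on the log2 scale and 81 of 100 changed by 2, with 6 unchanged genes called. Apart from 200 genes drawn at random, the simulation gave every condition the same mean, and no library was made an outlier. These rates may not hold for the real comparison, where 25.5% of all genes fell and 27.2% rose. Replicate numbers in the labels were checked for pairing: between 72 h TNF and 24 h TNF all 3 same-numbered pairs correlated above the limit of 0.1 set for pairing (r = 0.255 to 0.291), which in every other comparison at least 1 pair did not (72 h against NSP came nearest, with r = 0.0525 to 0.219), and the block left that count of calls at 0.

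The genes and lists were chosen with earlier results of these data known. Named genes are all snoRNP core, RNA polymerase I and PeBoW genes, *Ncl*, *Npm1* and *Npm3*, and per comparison the 3 largest changes in each direction among those called. Other genes named for missing a call, for an extreme value, for a promoter site or for hosted snoRNAs were chosen after their values were seen. Alternatives were DESeq2 1.42.0, RLE factors, other count filters, the replicate block, fits limited to each pair of groups, a fold minimum of 2 and leaving out libraries. Overlapping exons were found in 20 of the 50 genes, so reads there are uncertain. Figures used Python 3.11.15 and matplotlib 3.10.9.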

Additional observations from a re-analysis of the deposited data

How the results depend on the processing

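No called result reversed. Genes called lower than NSP kept their direction, while at 1 week 3 uncalled genes turned sign without NSP replicate 1: *Noc3l* (-0.18 to 0.15), *Polr1a* (-0.13 to 0.21) and *Rrp12* (-0.21 to 0.08). A fold minimum of 2 left 38 genes at 24 h, 31 at 72 h, 19 at 1 week, 32 at 24 h TNF and 33 at 72 h TNF. Of the further pathway genes it left 37 at 24 h, 21 at 72 h and 19 at 1 week. Leaving out single libraries gave 47 to 50 genes at 24 h, 44 to 49 at 72 h, 36 to 47 at 1 week, 44 to 49 at 24 h TNF and 47 to 50 at 72 h TNF. The replicate block gave 48, 46, 44, 49 and 48.

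The small counts moved more. For 72 h against 24 h (main count 1) no filter on low counts gave 2, a minimum of 10 counts 2, only the groups compared 8, and leaving out NSP 1, 24 h TNF 1 and 72 h TNF 1 together, an alternative added after seeing the data, 15; single libraries gave 1 to 2. For 1 week against 72 h (1) these gave 6, 2, 7 and 14, DESeq2 2, the replicate block 1, that block with 72 h replicate 3 unpaired (its column carries another number; added after seeing the data) 0, the fold minimum 0 and single libraries 0 to 0. For TNF at 24 h (0) no filter, only the groups compared and the 3 libraries left out gave 1 each, and 2, 2 and 3 further pathway genes. For TNF at 72 h (1) no filter, a minimum of 10, the replicate block and only the groups compared gave 2 each, DESeq2 and the 3 libraries left out 3 each, the fold minimum 0 and single libraries 1 to 2; the further pathway genes (1) gave 2 with a minimum of 10, 2 with the 3 libraries left out, 0 with 72 h replicate 3 unpaired in the block, 0 with only the groups compared, and 0 to 7 without single libraries, 7 without 72 h replicate 1. For 72 h TNF against 24 h TNF (0) the 3 libraries left out gave 7 and single libraries 0 to 1, 1 each without 24 h TNF replicate 1 or 72 h TNF replicate 3. For 1 week against 24 h (17) the 3 libraries left out gave 30, the fold minimum 0 and single libraries 8 to 16. For the interaction (0) no filter and the 3 libraries left out gave 1 each, *Polr1a*. With the 3 libraries left out, more of all genes were also called lower than in the main fit for some comparisons. The shares were 16.7% against 12.6% for 72 h against 24 h, and 8.99% against 3.96% for 1 week against 72 h. They were 12.1% against 7.93% for 72 h TNF against 24 h TNF, and 19.6% against 15.5% for 1 week against 24 h. The gene counts are not split by direction. Of the 15, *Bysl* and *Ncl* had log2 fold changes of -0.33 and -0.36 in the main fit. The cause of these moves was not tested.

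The call of *Polr1a* at 72 h against 24 h and with TNF at 72 h was kept in the 15 alternatives run for each comparison, but its fall with TNF at 72 h (1.93-fold) did not reach the fold minimum of 2. The lowest count of any gene was 6, for *Wdr74*; how depth limits single genes was not compared.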

Other observations

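NSP replicate 1 differed from the other NSP libraries by unlike amounts in genes outside the set. *Mki67*, a marker of cycling cells, was at 493 CPM in it against 457 and 471 CPM, while *Rrm2*, a ribonucleotide reductase subunit, was at 231 CPM against 87.8 and 80.6 CPM. Of 9 astrocyte markers 5 were lower in NSP replicate 1 than in both others, among them *Gfap* (11.6 CPM against 37.3 and 32.4), and 3 were higher, among them *Kcnj10* (149 CPM against 112 and 99.0). These genes were chosen after their values were seen.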
